A study of Mus musculus with 10 samples.

Results

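The genes described here are 32 genes of glycolysis and of the response to low oxygen, measured by RNA sequencing in mouse colon organoids treated with WY-14643 or vehicle. They were chosen by name: a row of the gene table was taken when it was annotated as protein coding and its symbol was one of the 32. This gave 33 of 56748 rows, because Aldoa has 2 rows, and all 33 had a mean of at least 0.5 FPKM (sequenced fragments corrected for the length of a gene and the size of a library) over the 10 libraries, the limit for testing that 13607 genes passed. Angptl4 passed through its higher WY-14643 libraries alone. Colon organoids are cultures of intestinal epithelium grown from crypt cells. They were treated from day 3 after passage, for 2 days, with 100 µM WY-14643, a synthetic agonist of the fatty acid receptor PPARα, in 5 libraries numbered 6 to 10. The 5 vehicle libraries, numbered 1 to 5, had the same culture times without the agonist. No genetic change, strain, age or organoid line is named for either group. The labels do not say that replicates came from separate animals or cultures, so p-values measure only the spread between these samples, which may be technical.

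Glycolysis splits glucose into pyruvate in the cytosol, and lactate dehydrogenase turns pyruvate into lactate when it is not burned in mitochondria. Cells that lack oxygen stabilise the transcription factor HIF-1α, because the prolyl hydroxylases that mark it for destruction need oxygen, and HIF-1α then raises the glucose carrier, most glycolytic enzymes and a set of genes for vessel growth, pH control and mitochondrial turnover. The colon lining lives at a steep oxygen gradient, and colonocytes usually burn fatty acids rather than glucose, so the balance between fatty acid oxidation and glycolysis bears on an agonist of a fatty acid receptor.

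Between 15618244 and 29271304 reads stood behind a library. Mitochondrial genes took 0.792% to 2.58% of the reads. Epithelial markers (9 genes, among them Epcam and Vil1) summed to 2529 to 4491 FPKM in vehicle and 2444 to 4905 FPKM in the WY-14643 libraries. The defining markers of fibroblasts, endothelium, red cells, muscle and nerve were at or near 0, with sums of at most 0.893 FPKM per list. Immune markers summed to 2.35 to 5.30 FPKM in vehicle and 1.9997 to 6.44 FPKM in the WY-14643 libraries. Nearly all of the immune sum was Cd68, at 2.30 to 5.23 FPKM in vehicle and 1.99 to 6.35 FPKM in the WY-14643 libraries. Lyz2 and Cd3e were at 0 in every library, and Ptprc, Itgam and Cd79a were at most 0.0949 FPKM. In these bulk samples, fewer cells of a type and less RNA per cell cannot be told apart. PPARα targets were read as a check of the treatment, without pairs and with pairs, as explained next. Cpt1a, which starts mitochondrial fatty acid oxidation, averaged 11.5 ± 2.39 FPKM in vehicle and 26.6 ± 3.52 FPKM in the WY-14643 libraries (SD, n = 5 each), and the groups did not overlap. Its adjusted p was 0.0917 without pairs and 0.01 with pairs (limma). Acadl (adjusted p with pairs 0.0221, without pairs 0.18) did not overlap between groups either and was higher in 5 of 5 pairs, while Plin2 (0.333 with pairs) and Fabp1 (0.42 with pairs) overlapped (limma). Plin2 was lower in WY-14643 replicate 10 than in its paired vehicle replicate 5 (log2 difference -0.18), and so was Pdk4, which was too low to be tested (0.0246 against 0.0398 FPKM). Fabp1 was listed at 0 in both of these libraries.

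Libraries of the 2 groups with matching positions in the numbering (vehicle replicate 1 with WY-14643 replicate 6, and so on to 5 with 10) deviated together from their group means over all genes (correlation 0.423 to 0.782 in the 5 pairs, against at most 0.0602 for other combinations). They are called pairs 1 to 5 here. No label states this pairing, which rests on the correlations and the order of the numbers. Differences were tested in limma without pairs, and a second fit had the pair as a block. Unless a pseudocount of 0.1 or voom is named, every log2 fold change here is a difference of log2(FPKM + 1). On that scale the change of a gene with low values is understated. Adjusted p-values are by Benjamini-Hochberg over all 13607 genes.

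The promoters are shown first, because many of these genes share the letters that HIF-1 binds. The core of a hypoxia response element is ACGTG or GCGTG. RefSeq promoter windows, 250 bases before to 50 after a gene's start in build GRCm38.p6, were found for 30 of the 32 symbols (42 windows). Angptl4 and Ndrg1 had no window and were not searched. Both strands were searched, so each CACGTG, which reads the same on both strands, counts as 2 matches. The core ACGTG was in a window of 23 of 30 genes (76.7%), against 21.8% of all 27025 genes with a window, and GCGTG in 20 of 30 (66.7%) against 35.2%. Either core was present for 28 of 30 (93.3%) against 46.7% of all genes. The windows of the 30 genes were also rich in CG, with a median of 22 CG per window against 7 in all windows, and the part of that in the count of cores was not tested. The repeat of AGGTCA after 1 base, the form of element that PPARα binds with its partner RXR, was in 0 of the 30 genes and in 0.0481% of all genes. Only this exact repeat inside the windows was looked for, and Angptl4 was not among the genes searched. A match is a description of letters and not of a bound site.

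The stretches below, written 5′ to 3′ on the strand of the gene with core matches of either strand in capitals (CACGT and CACGC are the reverse-strand forms), show how the cores lie in glycolytic genes. Ldha (chr7:46845654-46845783, plus strand) carries 5 matches here, 2 CACGTG and 1 CACGT. Pgk1 (chrX:106186930-106186989, plus strand) and Slc16a3 (chr11:120949007-120949066, plus strand) carry 2 each.
Ldha: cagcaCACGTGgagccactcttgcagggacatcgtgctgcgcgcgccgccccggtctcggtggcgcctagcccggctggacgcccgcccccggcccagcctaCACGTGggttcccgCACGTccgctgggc
Pgk1: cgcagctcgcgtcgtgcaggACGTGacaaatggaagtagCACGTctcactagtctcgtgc
Slc16a3: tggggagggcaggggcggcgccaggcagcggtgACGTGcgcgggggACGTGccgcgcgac
The next stretches come from 4 hypoxia-responsive genes whose levels varied widely among libraries, though not all of them as widely as Adm, Egln3 or Vegfa, which are not printed. Bnip3 (chr7:138909527-138909636, minus strand) has 5 matches, Ero1a (chr14:45318623-45318712, minus strand) 3, Ankrd37 (chr8:45999851-46000020, minus strand) 3, and Car9 (chr4:43506986-43507025, plus strand) 1, within 40 bases of its start.
Bnip3: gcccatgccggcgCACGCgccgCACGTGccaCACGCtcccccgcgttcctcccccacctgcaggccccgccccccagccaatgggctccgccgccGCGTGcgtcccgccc
Ero1a: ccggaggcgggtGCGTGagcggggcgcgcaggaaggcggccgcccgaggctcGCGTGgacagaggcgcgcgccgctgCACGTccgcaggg
Ankrd37: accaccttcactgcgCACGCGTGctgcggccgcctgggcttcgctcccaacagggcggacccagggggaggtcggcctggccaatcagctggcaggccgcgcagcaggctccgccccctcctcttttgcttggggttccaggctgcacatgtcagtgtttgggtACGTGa
Car9: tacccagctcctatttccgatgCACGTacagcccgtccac
For contrast, the next pair are Hif1a (chr12:73907722-73907816, plus strand), whose level hardly varied, with 3 matches, and Txnip (chr3:96557787-96557926, plus strand), which was higher with WY-14643 in all 5 pairs, with 2 matches, both GCGTG on one strand or the other.
Hif1a: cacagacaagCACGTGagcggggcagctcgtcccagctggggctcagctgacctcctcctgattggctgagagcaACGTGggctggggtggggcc
Txnip: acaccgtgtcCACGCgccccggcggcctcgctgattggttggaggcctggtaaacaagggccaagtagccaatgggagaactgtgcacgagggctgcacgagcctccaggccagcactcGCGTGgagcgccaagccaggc
The steady gene and the variable ones thus both hold cores in these windows.

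No glycolytic or hypoxia-responsive gene passed the test for a difference between treatments. Without pairs 0 of the 33 rows passed an adjusted p of 0.05 (limma), where 0.0% of all genes tested did, and with pairs 0 of 33 passed, where 0.316% of all genes did. At an unadjusted p under 0.05 there was 1 row without pairs (background 1.51%) and there were 2 with pairs (background 10.6%). Limma with library weights called 0 of 33 (background 0.154%) and voom on the recovered reads 0 of 33 (background 0.0%), with 1 row each at an unadjusted p under 0.05 (background 5.82% and 1.26%). The mean was higher in WY-14643 for 22 rows and lower for 11, with a median log2 fold change of 0.05, against -0.01 over all genes tested. That median ran from -0.12, without vehicle replicate 5, to 0.21, without vehicle replicate 2. In 0 of 33 rows did the groups not overlap (background 0.243% for WY-14643 higher and 0.11% for lower).

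**Figure D1:**
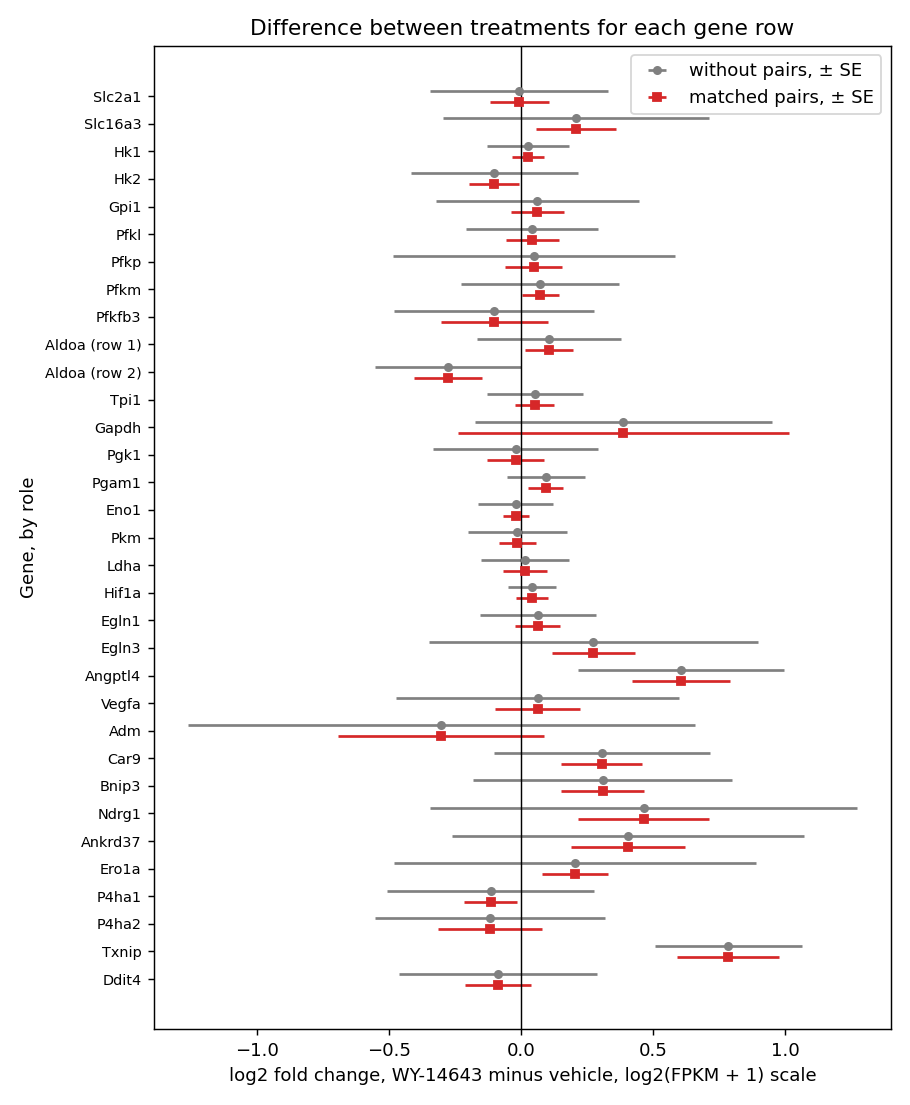
Log2 fold change, WY-14643 minus vehicle on the log2(FPKM + 1) scale (x axis), of each of the 33 gene rows (y axis, ordered by role), with bars of 1 standard error without pairs (grey circles) and with matched pairs (red squares); Aldoa row 1 is the abundant row. Most points lie near 0, Txnip lies farthest to the right at 0.78, and pairing shortens the bars of every row but Gapdh.

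The gene with the largest difference on the log2(FPKM + 1) scale was Txnip, which codes for thioredoxin-interacting protein, an arrestin-like protein that restrains glucose uptake by removing glucose carriers from the cell surface. It lies at chr3:96465273-96469199 on the plus strand (mm39). Txnip was at 43.0, 61.9, 98.6, 73.9 and 81.3 FPKM in vehicle replicates 1 to 5 and at 78.4, 201, 144, 92.7 and 117.6 FPKM in WY-14643 replicates 6 to 10. Each WY-14643 library was above its matched vehicle library, most of all in pair 2, while the groups overlapped, with WY-14643 replicate 6 below vehicle replicates 5 and 3. The log2 fold change was 0.78 with an SE of 0.28 without pairs and 0.19 with pairs, and the adjusted p was 1.0 and 0.213 (limma; unadjusted p = 0.0168 and 0.00585). It was the only row of 33 that was higher in 5 of 5 pairs (background 5.63%), and 0 rows were lower in all 5 (background 6.09%). Higher in at least 4 of 5 pairs were 16 of 33 rows (background 21.4%). Leaving out 1 library moved the fold change between 0.60 and 0.94. The rank of Txnip depended on the scale and on single libraries: Angptl4 had the larger log2 fold change with a pseudocount of 0.1 (1.76 against 0.79) and in voom (3.27 against 0.80), and also without vehicle replicate 1 (0.81 against 0.62) or without WY-14643 replicate 7 (0.61 against 0.60), 8 (0.725 against 0.719) or 10 (0.81 against 0.79). Treatment took 44.6% of its sum of squares, against a median of 0.849% over the 33 rows. Gm15441, a long non-coding RNA on the opposite strand across Txnip, was at 0.156 to 0.740 FPKM in the 10 libraries.

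Angptl4, a secreted inhibitor of lipoprotein lipase that both PPARα and hypoxia are known to induce, was low. It lies at chr17:33992724-34000804 on the minus strand (mm39). Its values were 1.04, 0, 0.0669, 0 and 0.0263 FPKM in vehicle replicates 1 to 5, and 3.88, 0.774, 0.288, 0.619 and 0.0122 FPKM in WY-14643 replicates 6 to 10. These rest on 63, 0, 5, 0 and 2 reads in vehicle and on 218, 46, 17, 39 and 1 reads in WY-14643 libraries. In pairs 1 to 4 the WY-14643 library was higher, and in pair 5 both were at or under 2 reads. The log2 fold change was 0.61 with an SE of 0.39 without pairs and 0.19 with pairs, and the adjusted p was 1.0 and 0.304 (limma). The fold change fell to 0.24 without WY-14643 replicate 6. It was 3.27 in voom, which works on reads and not on log2(FPKM + 1), the scale that understates changes of low values.

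**Figure D2:**
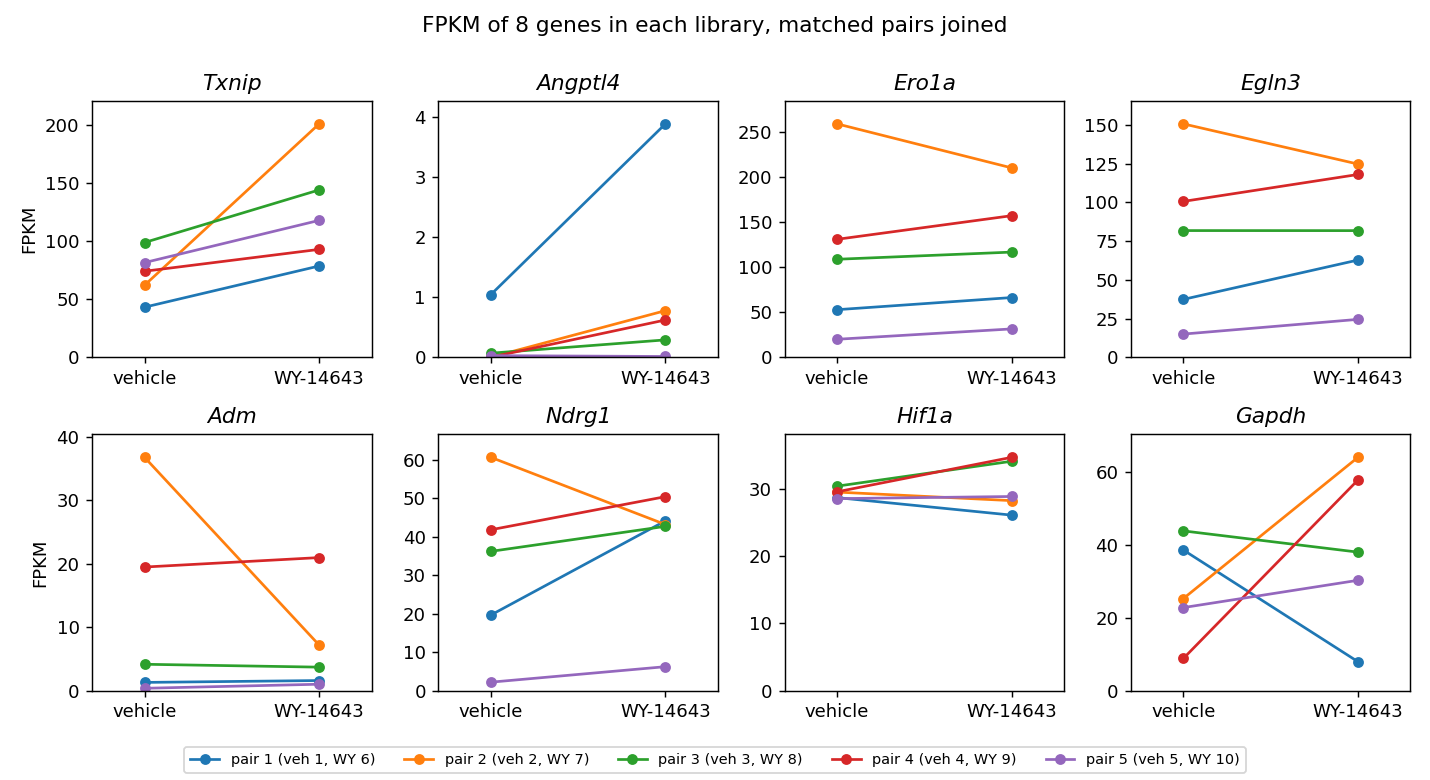
FPKM (y axis, from 0, its own scale in each panel) of 8 genes in vehicle and WY-14643 libraries (x axis), with the libraries of a matched pair joined by a line of 1 colour. All 5 lines of Txnip rise; in Ero1a and Egln3 the pairs keep their order, with pair 2 highest and pair 5 lowest; Hif1a stays between 26.1 and 34.6 FPKM; and the lines of Gapdh cross.

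Ddit4, which codes for REDD1, an inhibitor of mTORC1 induced by hypoxia and by stress hormones, is the other brake on growth and glucose use in the list. It was at 120.3, 239.9, 209, 223 and 78.1 FPKM in vehicle and 99.6, 173, 175, 274 and 93.7 FPKM in the WY-14643 libraries, in the order of their numbers. WY-14643 was lower in pairs 1 to 3 and higher in pairs 4 and 5 (log2 fold change -0.09, SE 0.37 without pairs). The libraries of pair 5 and of pair 1 were the low ones in both groups.

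The spread among libraries of the same group was wide. The SD within a group on the log2(FPKM + 1) scale had a median of 0.67 over the 33 rows and of 0.24 over all genes tested, and 30 of 33 rows were above the latter. Of all genes tested, 6.78% had an SD at or above the members' median. The members' median was the higher one in each range up to 200 FPKM and little different above that. At 0.5 to 2 FPKM the median SD was 0.69 for 1 row and 0.28 for 3128 genes. At 2 to 10 FPKM it was 0.78 for 3 rows and 0.23 for 5269 genes. Among genes at 10 to 50 FPKM the median SD was 0.70 for 13 member rows and 0.21 for all 4261 genes, at 50 to 200 FPKM 0.69 for 9 rows and 0.25 for 810 genes, and above 200 FPKM 0.30 for 7 rows and 0.27 for 139 genes. The 7 rows above 200 FPKM, all glycolytic enzymes, ran from 0.22 (Eno1) to 0.55 (Pgk1), with the abundant Aldoa row at 0.47. Glycolytic genes of lower level were above the median of their level too, among them Pfkp (0.96), Slc16a3 (0.91) and Gpi1 (0.69), with Hk1 nearest to it (0.26). Most hypoxia-responsive genes, though not Hif1a, were also above the median of their level. Most of the spread lay between pairs: the pair took a median of 91.5% of a row's sum of squares, against 83.6% over all genes tested. Since the pairs were read from these libraries, these shares are descriptions, with no test.

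**Figure D3:**
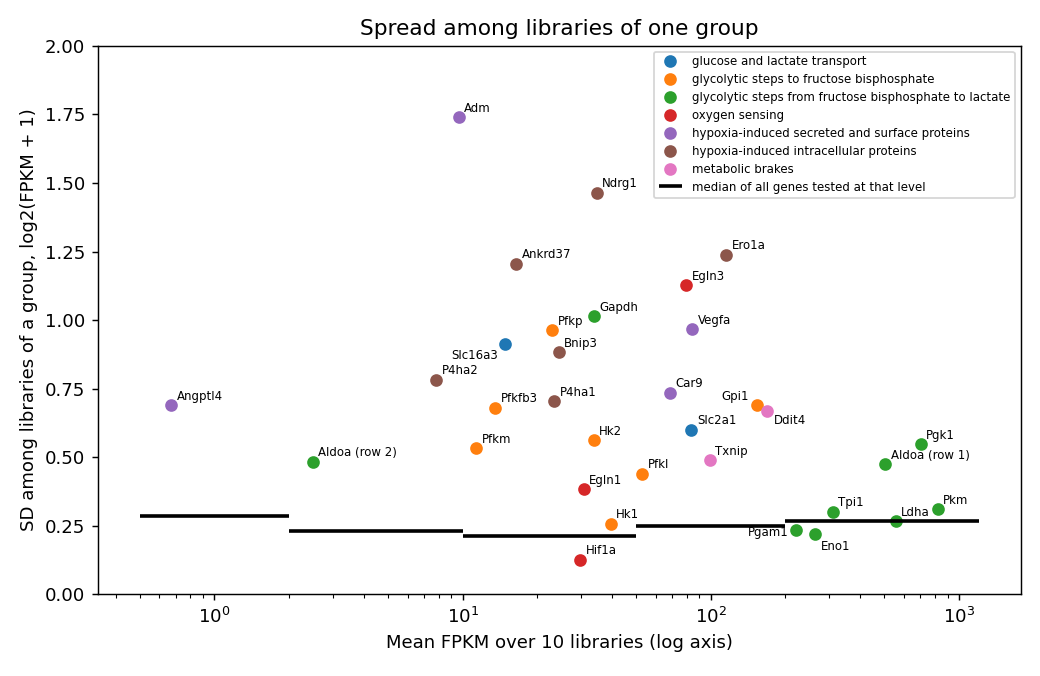
SD among libraries of a group on the log2(FPKM + 1) scale (y axis) against mean FPKM over 10 libraries (x axis, log scale), 1 point per gene row coloured by role, with black bars for the median of all genes tested in 5 ranges of FPKM. Adm (SD 1.74) and Ndrg1 (1.46) lie highest, Hif1a (0.13) lies below the bar of its range, and the enzymes above 200 FPKM lie between 0.22 and 0.55.

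The same libraries were high or low for most of the genes. Pair 2 had the highest mean of the 5 pairs in 22 of 33 rows (background 19.5%) and pair 5 the lowest in 24 (background 22.9%), and both held in 16 rows (background 4.4%). Vehicle replicate 2 was the highest of all 10 libraries in 27 rows (background 11.3%), and vehicle replicate 5 the lowest in 22 (background 10.1%). These pairs were picked out after the values were seen. The median deviation of the 33 rows from their gene means was 0.73 in vehicle replicate 2 and -0.85 in vehicle replicate 5 (log2), while that of all genes tested was 0.00 in both. Vehicle replicate 2 had the most reads of the 10 libraries, 29271304, and its partner WY-14643 replicate 7 had 16511842 reads. The part of depth in the high values of pair 2 was not tested. In pair 5 the keratin Krt20, a marker of mature surface colonocytes, was at 6.12 and 6.92 FPKM, against 54.9 to 169 FPKM in the other 8 libraries, and the sum of epithelial markers was lowest in pair 5 too (2529 and 2444 FPKM). The part of cell maturity in the low values of pair 5 was not tested.

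**Figure D4:**
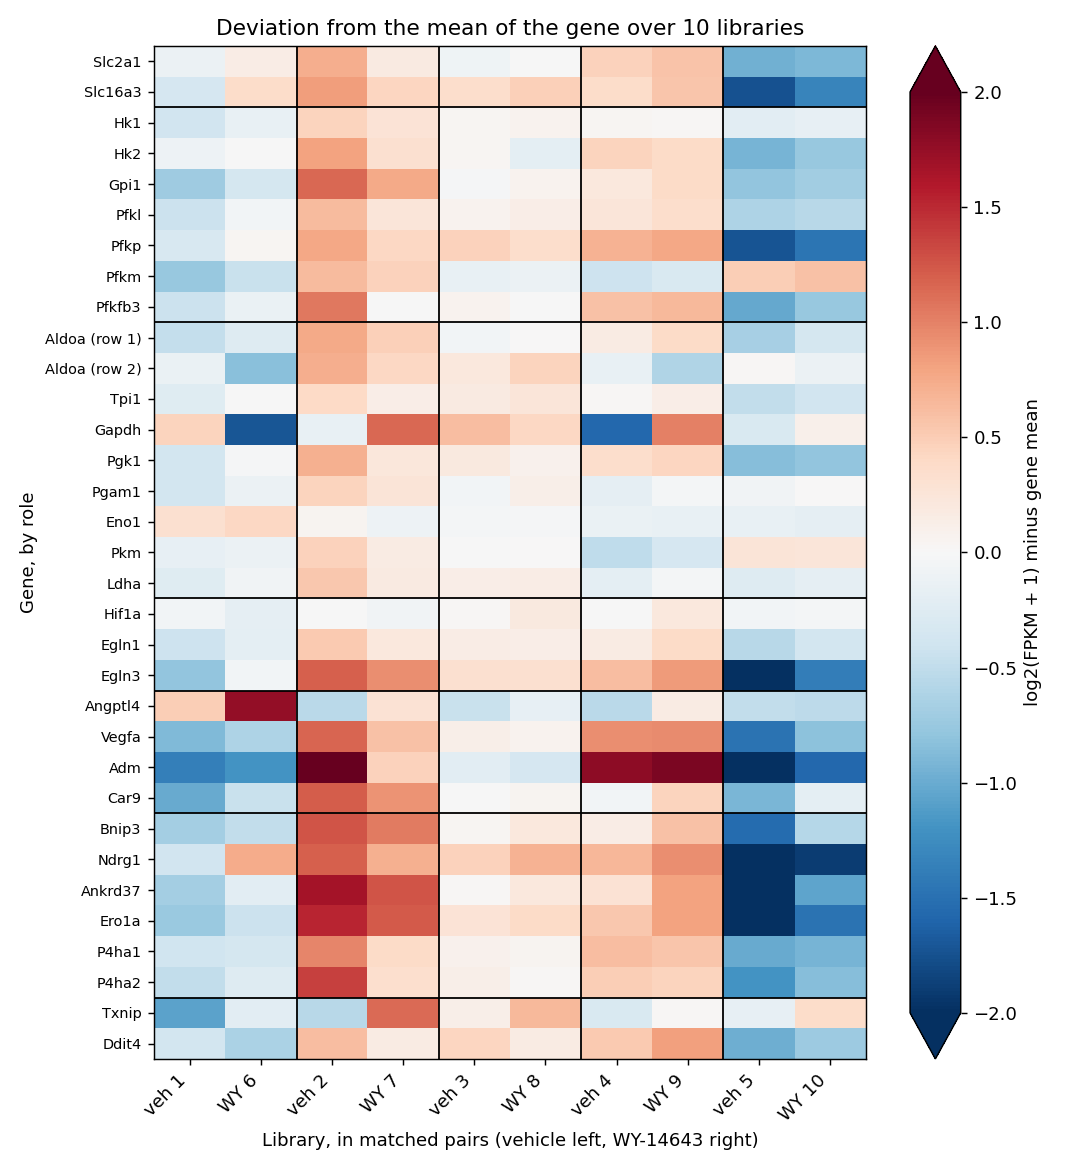
Deviation of each library from the gene's mean over 10 libraries on the log2(FPKM + 1) scale (colour, cut at 2 in either direction) for the 33 gene rows (y axis, ordered by role with lines between roles) and the 10 libraries in matched pairs (x axis, vehicle left, WY-14643 right, lines between pairs). The columns of pair 2 are red and those of pair 5 blue for most rows, while Txnip, Gapdh, Eno1, Pkm and Pfkm are among the rows that depart from that pattern.

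Within pairs most rows differed in the same direction. In pair 2 the WY-14643 library was lower in 30 of 33 rows (6967 of 13607 genes tested), with a median log2 difference of -0.32. In pairs 1, 4 and 5 the WY-14643 library was higher in 29, 27 and 29 rows (6935, 6508 and 6506 genes tested). The medians were 0.25, 0.15 and 0.19. In pair 3 it was higher in 21 rows (6504 genes tested), with a median of 0.03. For pairs 2 and 5 these counts largely restate the extremes above. Where vehicle replicate 2 was the highest library (27 rows) its partner had to be lower. Where vehicle replicate 5 was the lowest (22 rows) its partner had to be higher. Over all genes tested the median difference was between -0.01 and 0.00 in each pair. The differences of pairs 1, 4 and 5 and that of pair 2 thus went opposite ways for most of the genes. With 1 vehicle and 1 WY-14643 library in a pair, no test within a pair was possible.

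Among the carriers that bring in glucose and let out lactate, Slc2a1 (GLUT1, the basal glucose carrier) was at 72.3, 129.7, 73.5, 109 and 39.7 FPKM in vehicle and 86.5, 89.0, 77.7, 117 and 41.4 FPKM in the WY-14643 libraries. Pairs 2 and 4 were the highest and pair 5 the lowest in both groups, and the log2 fold change was -0.01 (SE 0.34 without pairs and 0.11 with pairs). Slc2a1 made up 95.7% ± 2.56 of the summed FPKM of 7 glucose carriers in vehicle and 94.4% ± 2.81 in WY-14643 libraries (SD, n = 5 each). Slc16a3 (MCT4, the lactate exporter of glycolytic cells) was at 10.1, 24.1, 16.9, 17.0 and 3.17 FPKM in vehicle and 17.1, 17.9, 18.5, 19.5 and 4.59 FPKM in the WY-14643 libraries. Vehicle replicate 5 and WY-14643 replicate 10 were the lowest of their groups, and the other 8 libraries were at 10.05 FPKM or above. The log2 fold change was 0.21 (SE 0.50 without pairs, 0.15 with pairs). Slc16a3 overlaps Csnk1d on the opposite strand, at 43.4 to 59.6 FPKM, and whether counting used strand is not given in the sources used here.

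The upper steps of glycolysis trap and prime glucose. Hk1 and Hk2, the hexokinases that phosphorylate it, shared the family almost evenly, with Hk1 at 53.6% ± 8.09 of the summed FPKM of 5 hexokinases in vehicle and 55.8% ± 6.42 in WY-14643 libraries (SD, n = 5 each). Hk2, the hypoxia-inducible form, ranged from 16.3 to 56.1 FPKM over the libraries (3.43-fold), and Hk1 from 29.7 to 53.6 FPKM (1.81-fold). The share of Hk2 was lowest in pair 5, at 32.7% and 34.6%, and lay between 40.1% and 52.0% elsewhere. Gpi1, the isomerase of the next step, had 84.9, 311, 138, 162 and 80.7 FPKM in vehicle and 109, 236, 146, 182 and 86.4 FPKM in the WY-14643 libraries, with vehicle replicate 2 at over 3 times the level of vehicle replicates 1 and 5. Their log2 fold changes were 0.03 for Hk1, -0.10 for Hk2 and 0.06 for Gpi1, each smaller than its SE without pairs (0.15, 0.32 and 0.38).

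Phosphofructokinase commits the sugar to glycolysis, and its 3 genes did not vary alike. Pfkl, the liver form, kept 59.1% to 63.9% of the family's FPKM in every library. Pfkp, the platelet form, was at 15.7, 34.8, 27.7, 32.8 and 5.26 FPKM in vehicle and 20.3, 26.7, 25.7, 34.6 and 6.59 FPKM in the WY-14643 libraries, lowest in pair 5. Pfkm, the muscle form, was at 5.93, 17.2, 9.57, 7.73 and 15.5 FPKM and 7.54, 15.00, 9.79, 8.48 and 16.6 FPKM, and was high in pairs 2 and 5. As a result Pfkm exceeded Pfkp in both libraries of pair 5 (28.9% and 28.8% of the family against 9.83% and 11.5%) and was below it in the other 8. Pfkfb3, which makes the activator fructose 2,6-bisphosphate, ranged from 5.51 to 26.7 FPKM, and pair 2 differed most, with 26.7 FPKM in vehicle and 12.2 FPKM with WY-14643. For these 4 genes the log2 fold changes lay between -0.10 (Pfkfb3) and 0.07 (Pfkm), and 0 of them passed the test. Pfkp and Pfkm overlap Pitrm1 (mean 17.3 FPKM) and Senp1 (5.92 FPKM) on the opposite strand.

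**Figure D5:**
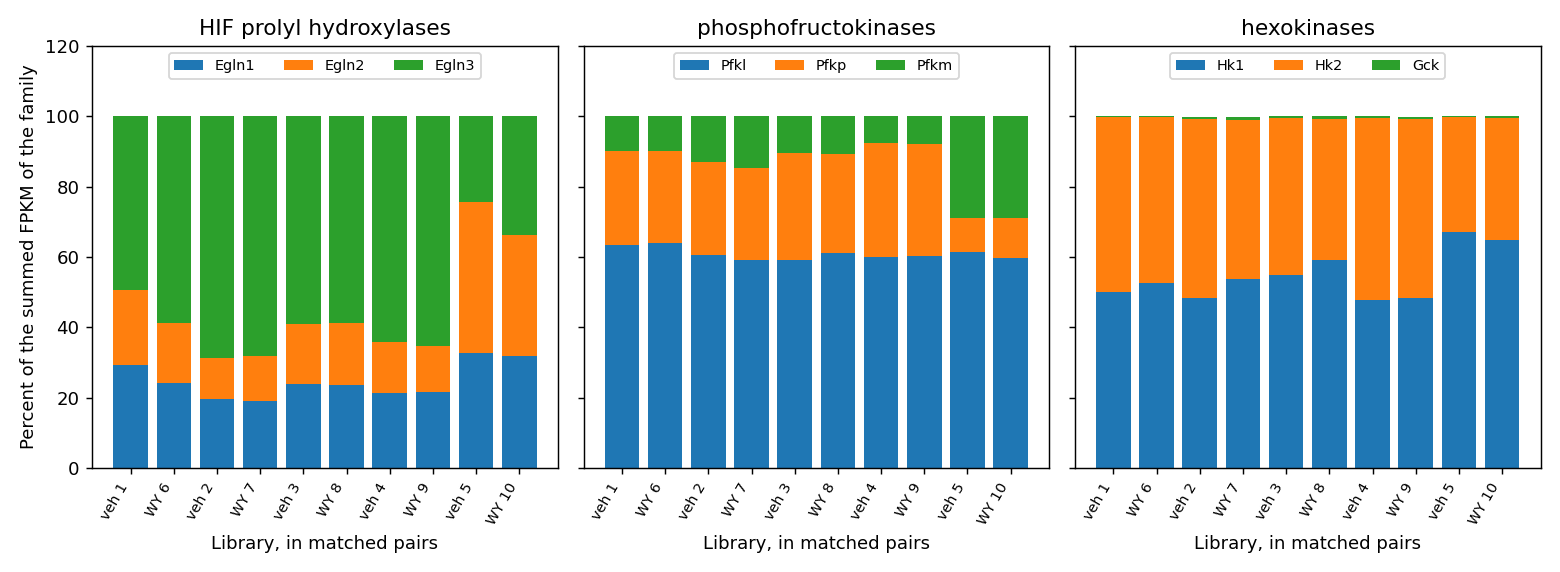
Percent of the summed FPKM of a family (y axis, from 0) held by each gene in the 10 libraries (x axis, in matched pairs) for the HIF prolyl hydroxylases, the phosphofructokinases and the hexokinases; Hk3 and Hkdc1, at most 0.224% of the hexokinases, are not drawn. Both libraries of pair 5 have the smallest shares of Egln3 (24.5% and 33.9%), Pfkp and Hk2, while Pfkl stays between 59.1% and 63.9% throughout.

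The lower steps, from the split of fructose bisphosphate to lactate, were the most abundant. Pkm (pyruvate kinase of muscle and growing tissue) averaged 832 ± 209.5 FPKM in vehicle and 811 ± 127 FPKM in the WY-14643 libraries, Pgk1 (phosphoglycerate kinase) 718 ± 281 and 686 ± 192 FPKM, and Ldha (the lactate dehydrogenase subunit that favours lactate) 559.8 ± 145.4 and 554 ± 59.7 FPKM (SD, n = 5 each). Pgk1 followed the common order of libraries, with 518, 1085, 765, 852 and 369 FPKM in vehicle and 656, 782, 709.8, 899.6 and 384 FPKM in the WY-14643 libraries. Pkm did not: it was at 719, 1107, 802, 569 and 962 FPKM and 742, 906, 807, 641 and 959 FPKM, lowest in pair 4 and high in pair 5. Ldha was at 462, 797, 602, 480.5 and 457 FPKM and 521, 624, 608, 535 and 484 FPKM, and Ldhb was at most 0.0439% of the family's FPKM, so nearly all of the family's transcript was Ldha. Log2 fold changes were -0.01 for Pkm, -0.02 for Pgk1 and 0.01 for Ldha. A gene model of its own, Gm49759, lies within Pkm on the same strand (24.7 to 84.6 FPKM), and how reads were divided between them is not given in the sources used here.

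Aldolase A has 2 rows, which lie next to each other on the minus strand. The abundant one (ENSMUSG00000030695, chr7:126394406-126399923, mm39) was at 348, 821, 465, 539 and 306 FPKM in vehicle and 404, 669.8, 486, 634 and 380.3 FPKM in the WY-14643 libraries, with pair 2 high in both. The other (ENSMUSG00000114515, chr7:126399962-126408280) had 2.05, 4.53, 2.85, 1.98 and 2.39 FPKM and 0.867, 3.43, 3.53, 1.20 and 2.05 FPKM. This minor row was the only one of the 33 to be lower in 4 of 5 pairs (log2 fold change -0.28, SE 0.28 without pairs and 0.13 with pairs; limma, adjusted p = 1.0 and 0.507). For the abundant row the log2 fold change was 0.11 (SE 0.27 without pairs).

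Triose phosphate isomerase (Tpi1, 217 to 402 FPKM), phosphoglycerate mutase (Pgam1, 169.7 to 297 FPKM) and enolase (Eno1) varied less, with SDs of 0.30, 0.23 and 0.22 (log2) within groups. Eno1 had an order of its own: it was at 327, 272, 253, 237 and 235 FPKM in vehicle and 349, 242, 257, 236 and 229 FPKM in the WY-14643 libraries, highest in pair 1, where the median deviation of the 33 rows was -0.39 in vehicle and -0.18 with WY-14643 (log2). Eno1b, a near copy of Eno1 on another chromosome that can share reads with it, was at 9.22 to 15.6 FPKM. Log2 fold changes were 0.05 for Tpi1, 0.09 for Pgam1 and -0.02 for Eno1, and Tpi1 and Pgam1 were each higher in 4 of 5 pairs.

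Gapdh, the dehydrogenase between Tpi1 and Pgk1 and a common reference gene, stood apart. It was at 38.5, 25.2, 43.8, 8.82 and 22.8 FPKM in vehicle and 7.94, 64.0, 38.0, 57.7 and 30.2 FPKM in the WY-14643 libraries (chr6:125138678-125143430, minus strand, mm39). Every library was below 64.0 FPKM, while the enzymes on either side of it in the pathway were at 217 FPKM or above in each library. The pairs disagreed: the WY-14643 library fell by 2.15 in pair 1 relative to vehicle and was higher by 2.58 in pair 4 on the log2(FPKM + 1) scale. The pair took 23.5% of its sum of squares, the lowest share of the 33 rows, and Gapdh was the 1 row whose SE was larger with pairs than without (0.63 against 0.56). The 575 reads of vehicle replicate 4 and 521 reads of WY-14643 replicate 6 were the lowest, against 2018 to 4436 reads elsewhere. The processed copies Gapdh-ps15 and Gapdh-ps16 were at most 0.756 FPKM. Copies of other members reached higher levels: Tpi-rs11 13.5, Pgam1-ps2 10.4, Ldha-ps2 5.77 and Pgk1-rs7 5.21 FPKM at most. How reads with several matches were handled is not given in the sources used here. The values of Gapdh and of the other members with copies are uncertain in that respect, and its part in the Gapdh values was not tested.

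Of the oxygen-sensing genes, Hif1a, the regulated subunit of HIF-1, was the steadiest member; it is known to be controlled mostly at the protein. It was at 28.7, 29.5, 30.4, 29.5 and 28.5 FPKM in vehicle and 26.1, 28.2, 34.1, 34.6 and 28.8 FPKM in the WY-14643 libraries, with a within-group SD of 0.13 (log2), the smallest of the 33 rows. The prolyl hydroxylase gene Egln3, itself induced by HIF, ranged far more widely, at 37.4, 151, 81.8, 101 and 14.9 FPKM in vehicle and 62.8, 125, 81.8, 118.0 and 24.4 FPKM in the WY-14643 libraries. It went from 14.9 to 151 FPKM over the libraries (10.1-fold), and pair 2 and pair 5 were its extremes in both groups. Egln1, the main oxygen sensor in most tissues, ranged 2.17-fold, from 19.9 to 43.2 FPKM. Egln3 made up 53.2% ± 17.6 of the summed FPKM of the 3 hydroxylases in vehicle and 57.0% ± 13.6 in WY-14643 libraries (SD, n = 5 each), and from 24.5% to 68.8% over single libraries. Log2 fold changes were 0.04 for Hif1a, 0.06 for Egln1 and 0.27 for Egln3 (SE 0.62 without pairs and 0.16 with pairs).

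The secreted and surface proteins of the hypoxia response act on vessels and on acidity. Vegfa, the vessel growth factor, was at 38.1, 160.3, 76.7, 136 and 24.9 FPKM in vehicle and 45.7, 108, 74.4, 137 and 39.7 FPKM in the WY-14643 libraries, highest in vehicle replicate 2 and high in both libraries of pair 4. Adm, which codes for the vasodilator peptide adrenomedullin, was at 1.299, 36.8, 4.16, 19.5 and 0.374 FPKM and 1.60, 7.18, 3.70, 21.0 and 1.01 FPKM, from 13 reads in vehicle replicate 5 to 1728 reads in vehicle replicate 2. Adm had the widest range of the members detected in every library, 98.2-fold, and the largest SD within a group (1.74, log2). Its log2 fold change of -0.30 (SE 0.96 without pairs and 0.39 with pairs) was the lowest of the 33 rows and rested on pair 2, since the difference was -2.21 in that pair and between -0.13 and 0.55 in the other 4. Without pair 2 the log2 fold change of Adm with pairs was 0.17. Car9, the membrane carbonic anhydrase that removes acid and is a widely used mark of hypoxia, was at 29.9, 143, 60.3, 58.9 and 31.9 FPKM and 44.6, 114, 63.5, 83.5 and 53.1 FPKM. It was higher in WY-14643 in 4 of 5 pairs, all but pair 2 (log2 fold change 0.31, SE 0.15 with pairs; limma, adjusted p = 0.544 with pairs).

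The intracellular hypoxia-responsive genes showed the common order most plainly: in all 6, pair 2 was highest and pair 5 lowest, and vehicle replicates 2 and 5 were the extreme libraries. Ero1a, the oxidase that makes disulfide bonds in the endoplasmic reticulum, was at 52.8, 259, 109, 131 and 19.9 FPKM in vehicle and 66.3, 210.2, 117, 157 and 31.4 FPKM in the WY-14643 libraries, and the pair took 97.3% of its sum of squares. Bnip3, a mitophagy receptor that removes mitochondria, was at 12.7, 51.2, 21.5, 23.4 and 6.53 FPKM and 14.5, 44.1, 24.5, 31.8 and 13.7 FPKM. Ankrd37, a small ankyrin-repeat protein and HIF target, was at 7.44, 42.0, 12.8, 15.5 and 1.76 FPKM and 10.7, 31.6, 14.7, 22.6 and 5.56 FPKM. For these 3 genes all pairs but pair 2 were higher in WY-14643, with log2 fold changes of 0.20, 0.31 and 0.40 (SE 0.12, 0.16 and 0.21 with pairs) and adjusted p-values with pairs of 0.621, 0.546 and 0.564 (limma).

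Ndrg1, a stress-responsive protein of differentiating epithelium, was at 19.6, 60.6, 36.2, 41.8 and 2.21 FPKM in vehicle and 44.1, 43.2, 42.7, 50.4 and 6.23 FPKM in the WY-14643 libraries. The vehicle libraries were spread over a 27.5-fold range, while 4 of 5 WY-14643 libraries lay between 42.7 and 50.4 FPKM and replicate 10 was at 6.23 FPKM. Its log2 fold change was 0.46 (SE 0.81 without pairs and 0.25 with pairs). The collagen prolyl 4-hydroxylases P4ha1 (10.1 to 43.0 FPKM) and P4ha2 (2.41 to 19.3 FPKM) help collagen fold, and both had a lower mean in WY-14643, with log2 fold changes of -0.12 and -0.12. P4ha1 held 75.8% of the family's FPKM in both groups (SD 4.25 in vehicle and 0.742 in WY-14643 libraries, n = 5 each). In pair 2 P4ha2 was at 19.3 FPKM in vehicle and 8.94 FPKM with WY-14643, and in pairs 1 and 5 the WY-14643 library was the higher one.

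Other genes of the same pathways were read from the same fits. Of 34 further glucose and lactate carriers and glycolytic isozymes, 22 were tested and 0 passed in either fit. The 4 with the smallest p without pairs were Slc2a6, Pfkfb2, Bpgm and Slc16a1. Slc2a6, a relative of the glucose carriers, averaged 0.624 ± 0.245 FPKM in vehicle and 1.097 ± 0.304 FPKM in the WY-14643 libraries and was higher in 5 of 5 pairs (limma, adjusted p = 1.0 without pairs and 0.147 with pairs). Slc16a1 (MCT1, a carrier of lactate and of short-chain fatty acids) averaged 57.3 ± 13.8 and 68.6 ± 17.4 FPKM, also higher in 5 of 5 pairs (limma, adjusted p = 0.125 with pairs). Pfkfb2, a relative of Pfkfb3, averaged 6.51 ± 0.842 and 5.79 ± 0.478 FPKM and was lower in 5 of 5, and Bpgm, which makes 2,3-bisphosphoglycerate, averaged 19.4 ± 4.47 and 22.4 ± 2.71 FPKM (SD, n = 5 each). Of the 22 genes, 5 were higher in 5 of 5 pairs (background 5.63%) and 1 was lower (background 6.09%), and 8 had an unadjusted p under 0.05 with pairs (background 10.6%).

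Of 35 other HIF-responsive genes 28 were tested, and 0 passed in either fit. Hilpda, a lipid droplet protein that blocks fat breakdown, was at 30.5, 42.9, 33.6, 41.8 and 6.81 FPKM in vehicle and 52.5, 52.8, 52.9, 107 and 12.3 FPKM in the WY-14643 libraries, higher in each pair while the groups overlapped. Its log2 fold change was 0.76 (SE 0.59 without pairs; limma, adjusted p = 1.0 and, with pairs, 0.108). Selenbp1, a selenium-binding protein of mature colonocytes, averaged 92.4 ± 90.8 and 127 ± 88.2 FPKM and was higher in 5 of 5 pairs (adjusted p = 0.178 with pairs, limma), and Mif, a cytokine, averaged 149.8 ± 36.5 and 167 ± 30.6 FPKM. Sap30, a subunit of the Sin3 repressor complex, averaged 25.8 ± 3.38 and 21.2 ± 3.81 FPKM and was lower in 5 of 5 pairs (log2 fold change -0.28; limma, adjusted p = 0.247 with pairs). Of the 28 genes, 3 were higher in 5 of 5 pairs (background 5.63%) and 2 were lower (background 6.09%). An unadjusted p under 0.05 with pairs was found for 4 (limma, background 10.6%). The median log2 fold change of the 28 genes was 0.02. Pair 2 was highest in 16 of them (background 19.5%) and pair 5 lowest in 17 (background 22.9%).

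Of 16 genes of the HIF machinery 13 were tested, and 0 passed in either fit. The 4 with the smallest p, Rbx1, Siah1a, Eloc and Elob, all parts of ubiquitin ligases, had log2 fold changes between -0.07 and 0.08. Hif3a, a HIF relative that can oppose HIF-1, followed the pairs, at 0.435, 5.30, 1.79, 1.82 and 0.167 FPKM in vehicle and 0.62, 4.52, 1.76, 2.06 and 0.399 FPKM in the WY-14643 libraries. All 13 genes of glucose sensing and of the arrestin and sestrin families around Txnip and Ddit4 were tested, and 0 passed in either fit. Sesn1, a stress-induced inhibitor of mTORC1, averaged 2.98 ± 0.892 and 3.66 ± 1.45 FPKM, and the log2 fold changes of Mlxip, Mlx and Txn1 were 0.06, 0.08 and 0.16. Arrdc4, the arrestin relative that shares glucose-driven control with Txnip, averaged 13.3 ± 3.65 and 13.6 ± 1.903 FPKM (log2 fold change 0.06, SE 0.19; SD, n = 5 each). Whether the difference in Txnip was larger than that in Arrdc4 was not tested.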

How the data were processed

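FPKM values of 10 libraries were deposited by the authors as 1 table of 56748 genes. The tools featureCounts 1.5.0-p3 and HISAT2 2.0.5 and build mm39 are named, per the submitters' processing notes. The strand setting, annotation release and handling of multiply matching reads were not given in the sources used here. Polyadenylated RNA was captured on beads, per the labels' protocols. Whole reads were recovered from the FPKM steps in 100% of values (tolerance 0.01), which gave 15618244 to 29271304 reads per library and were used for depth and for voom. The groups were compared with limma 3.58.1 (R 4.3.3) on log2(FPKM + 1) (eBayes with trend and robust priors, no covariate) over genes with a mean of at least 0.5 FPKM, with Benjamini-Hochberg adjustment and a threshold of 0.05. Files were read and drawn with Python 3.11.15, pandas 2.3.3 and matplotlib 3.10.9. The fits were also run on simulated reads, drawn around the means of the pairs with a fixed spread. That builds in the pairing, so it does not show how the fits perform on noisy rows such as Gapdh.

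The labels share no replicate numbers between groups, so the planned fit had no block. The pair block was used because all 5 pairs had a correlation of deviations above 0.1 (0.423 to 0.782). Alternatives were a pseudocount of 0.1, no filter, a filter of 2 FPKM, median-ratio and total-reads scaling, library weights, voom, and leaving out each library or pair. Named were all members, the 4 tested genes with the smallest p of each companion list, and treatment checks (1 result is not reported here); Arrdc4 and Hif3a were added after their values were seen. Members and lists were chosen with earlier results of these data known. Of the 33 rows, 19 overlap another gene in position. Promoter windows are RefSeq sequence in build GRCm38.p6, while gene positions are those of the table (mm39), and the builds were not mixed.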

Additional observations from a re-analysis of the deposited data

Results flagged for a closer look

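In 66 groups of 5 values (33 gene rows in each treatment), 4 held 1 library farther from the rest than Dixon's critical value of 0.71 for the gap over the range allows, where chance gives about 1 in 20 groups. Slc16a3, the lactate exporter, was at 4.59 FPKM in WY-14643 replicate 10 and at 17.1 to 19.5 FPKM in the other 4 WY-14643 libraries. Ndrg1 was at 6.23 FPKM in the same library and at 42.7 to 50.4 FPKM in the other 4. Eno1 was at 349 FPKM in WY-14643 replicate 6, against 229 to 257 FPKM in the others. Angptl4 was at 1.04 FPKM in vehicle replicate 1, against 0 to 0.0669 FPKM in the others. Each time the partner in the pair was the extreme library of its own group in the same direction. Vehicle replicate 5 had 3.17 FPKM for Slc16a3 and 2.21 FPKM for Ndrg1. Eno1 was at 327 FPKM in vehicle replicate 1, and Angptl4 at 3.88 FPKM in WY-14643 replicate 6. Rows that varied together were counted as separate groups.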

How the results depend on the processing

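Of the 33 rows 0 passed under each alternative and with each library or pair left out, so the count did not depend on the choices tried. Over all genes, 0 passed without pairs, 43 with the replicate block on the matched pairs, 21 with library weights and 0 with voom. With pairs, leaving out pair 1, 2, 3, 4 or 5 gave 33, 3, 2, 13 or 33 genes. Without pairs, 1 gene passed without vehicle replicate 2, 2 without vehicle replicate 5, 1 without WY-14643 replicate 10, and 0 without each of the other 7 libraries. The block changed no call of a member. The members' median SD stayed between 0.54 and 0.71 under the alternatives run.

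Members with small fold changes changed sign under some choices, and 0 of them passed in any of these fits. The log2 fold change became 0.0014 for Slc2a1 with total-reads scaling, 0.050 for Slc2a1, -0.039 for Pfkp and -0.0011 for Ldha with library weights, and 0.0081 for Slc2a1 and 0.0015 for Pkm with voom. In the fit with pairs it became -0.027 for Hk1, -0.012 for Gpi1, -0.042 for Pfkl, -0.029 for Pfkp and -0.026 for Ldha without pair 1. Without pair 2 it became 0.13 for Slc2a1, 0.14 for Pfkfb3, 0.092 for Pgk1, 0.016 for Eno1, 0.055 for Pkm, 0.17 for Adm, 0.0049 for P4ha1, 0.11 for P4ha2 and 0.0076 for Ddit4. It became 0.00071 for Pgk1 without pair 3, -0.16 for Gapdh, -0.021 for Ldha and -0.0044 for Hif1a without pair 4, and -0.010 for Pfkp, -0.0028 for Ldha and -0.086 for Vegfa without pair 5. Leaving out 1 library at a time, without pairs, took the log2 fold change across 0, over ranges of -0.067 to 0.14 for Hk1, -0.13 to 0.36 for Gpi1, -0.11 to 0.21 for Pfkl, -0.38 to 0.42 for Pfkp, -0.11 to 0.24 for Pfkm, -0.064 to 0.16 for Tpi1, -0.13 to 0.058 for Eno1, -0.050 to 0.15 for Ldha, -0.069 to 0.20 for Egln1, -0.30 to 0.36 for Vegfa, -0.25 to 0.22 for Slc2a1, -0.35 to 0.085 for Hk2 and -0.37 to 0.15 for Pfkfb3. The ranges were -0.24 to 0.17 for Pgk1, -0.14 to 0.10 for Pkm, -0.87 to 0.33 for Adm, -0.38 to 0.12 for P4ha1, -0.43 to 0.21 for P4ha2, -0.34 to 0.083 for Ddit4, -0.20 to 0.56 for Slc16a3, -0.046 to 0.31 for Aldoa (abundant row), -0.21 to 0.65 for Egln3, -0.038 to 0.66 for Bnip3, -0.25 to 0.997 for Ndrg1, -0.12 to 0.87 for Ankrd37, -0.30 to 0.61 for Ero1a and -0.0071 to 0.092 for Hif1a.

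The cause of these changes of sign was not tested. Angptl4 is limited by few reads, at most 5 in 4 of 5 vehicle libraries, with 0 in vehicle replicate 2, the library with the most reads. The spread between pairs sets an SE of up to 0.96 without pairs. Differences of that size in Adm, Ndrg1 or Ero1a were thus not detectable without pairs. With the filter of 2 FPKM Angptl4 was not tested.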
